A study of Mus musculus with 27 samples.

Results

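The comparison described here set hippocampal mRNA of ovariectomized mice given xanthohumol (OVX Xmo) against that of sham-operated mice given saline (sham saline), and asked which genes still stood apart from the untreated sham group after treatment. Its members were taken by label: 4 OVX Xmo and 3 sham saline libraries, 7 of the 15 mRNA libraries and of 27 libraries in the whole series. ICR mice, an outbred stock, were used in all groups, and the labels name no altered gene. Sham saline mice had a sham operation and saline. OVX Xmo mice had their ovaries removed and received xanthohumol, abbreviated Xmo, so surgery and treatment both differed between the groups and their effects in this comparison cannot be told apart. The remaining cells of the design, ovariectomy with saline (OVX saline) and sham operation with xanthohumol (sham Xmo), held 4 libraries each and are used for values side by side. Age, dose, route and duration are not given in the sources used here. Nothing states that the libraries came from separate mice, so each p-value measures only the spread between these samples. The tissue was bulk hippocampus, in which fewer cells of a type and less RNA per cell cannot be told apart.

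Ovariectomy removes the main source of circulating estrogen and progesterone. Hippocampal neurons and glia carry receptors for both hormones, and estrogen is known there for its effects on spine density, synaptic plasticity and mitochondrial function. Xanthohumol is a prenylated flavonoid of hops that can react with KEAP1, the protein that holds the antioxidant transcription factor NRF2 in check. Oxidative phosphorylation, a recurrent group in what follows, runs on enzyme complexes whose subunits come from nuclear genes and from the small mitochondrial genome, except for complex II, which is encoded in the nucleus alone.

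The 15 libraries held 20848661 to 39140593 counts, with 28682463 to 29552049 in sham saline and 20848661 to 34830620 in OVX Xmo. Levels are given as CPM, counts per 1000000 counts of a library scaled by TMM factors, unless a summed level is stated to be unscaled. Marker genes of hippocampal fields were present in all libraries: the summed unscaled level of 15 dentate granule cell markers was 703 to 865 CPM in sham saline compared with 809 to 1105 CPM in OVX Xmo, and that of 17 CA2 and CA3 markers 909.8 to 1124 against 1131 to 1598 CPM. Unscaled levels fall where mitochondrial counts rise, so these ranges also carry a difference in mitochondrial share between the groups. None of these markers passed the test given below. The sham saline libraries stood apart from the rest of the series, though not equally. Their TMM factors were 0.969, 0.726 and 0.838 in libraries 1 to 3, against 0.976 to 1.09 in the 12 others. In 1009 of 19969 genes tested (5.05%) all 3 lay outside the range of the 12 other libraries, whereas the 4 OVX Xmo libraries lay outside the range of the 11 others in 33 genes (0.165%). These shares are not on the same scale, since 4 libraries lie outside the others by chance less often than 3.

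The library labelled OVX Xmo 2 stood apart in 1 gene that bears on its label. Xist, the RNA that coats the inactive X chromosome of female cells, had 13 counts there (0.365 CPM) and 781 to 1606 CPM in the 14 other libraries. In the same library 7 genes of the Y chromosome (Ddx3y, Eif2s3y, Kdm5d, Usp9y, Uty, Zfy1 and Zfy2) had 0 counts in all, and they summed to at most 2 counts in any library. X-linked genes other than Xist took 2.87% of its counts, and 2.83% to 2.85% in the remaining OVX Xmo libraries. The labels used here do not state sex, and an ovariectomized mouse is female, so the near-absence of Xist goes against the label while the absence of Y-linked counts does not. The cause was not tested. Results are therefore also given without this library.

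Without the library labelled OVX Xmo 2, only Gdf1 and Zfyve27 passed in edgeR, and none of the 47 gene lists tested had a member past the test. All 59 genes chosen by the naming rule kept their direction, and their log2 fold changes moved by -0.21 to 0.29. Zfyve27 measured 1.55 and Gdf1 8.53. Casp2 measured 1.63 (edgeR adjusted p = 0.0620), Htr7 0.85 (0.103), Cox5a 0.62 (0.102), Sdhb 0.43 (0.109), Prdx5 0.52 (0.101), Igf1r -0.43 (0.101), mt-Nd6 -1.97 (0.109) and Lcn2 -5.22 (0.101). The median was -1.50 over mitochondrially encoded genes, 0.23 over nuclear subunits of oxidative phosphorylation, 0.10 over antioxidant genes and 0.16 over proteasome genes, and the difference in mitochondrial share was -11.5 percentage points. The medians of 7 lists changed sign: sodium and calcium channels (-0.12), immediate early genes (0.05), cell division (-0.08), Wnt signalling (-0.04), and markers of astrocytes (-0.04), mural cells (-0.05) and red blood cells (0.01). The counts and values that follow include the library.

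In OVX Xmo, 237 of 19969 genes differed from sham saline at an adjusted p under 0.05 in edgeR's quasi-likelihood test (1.19%). Of these, 149 rose (0.746%) and 88 fell (0.441%). The increases had a median log2 fold change of 0.53 (1.44-fold), and 139 of 149 were under 1. The decreases had a median of -0.84 (1.79-fold), and 51 of 88 were under 1 in size. In 234 of the 237 genes the 4 OVX Xmo and 3 sham saline values did not overlap, which held for 14.9% of all genes tested. The level in sham saline was outside the range of all 12 other libraries in 194 of the 237, against 5.05% of all genes. Only 2 genes, Gdf1 and Zfyve27, had an adjusted p under 0.01, the next smallest edgeR adjusted p was 0.0269, and 232 lay above 0.03. A total of 3780 genes had an unadjusted p under 0.05, so many genes lay close to the threshold on both sides. Of the 237, 33 share at least 50% of their span with another gene and are uncertain, and 20 have predicted symbols only. Where a list that follows has a single member past the test, that count is not read as a result about the list. The plot of fold changes against p-values shows the crowding near the threshold.

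**Figure D1:**
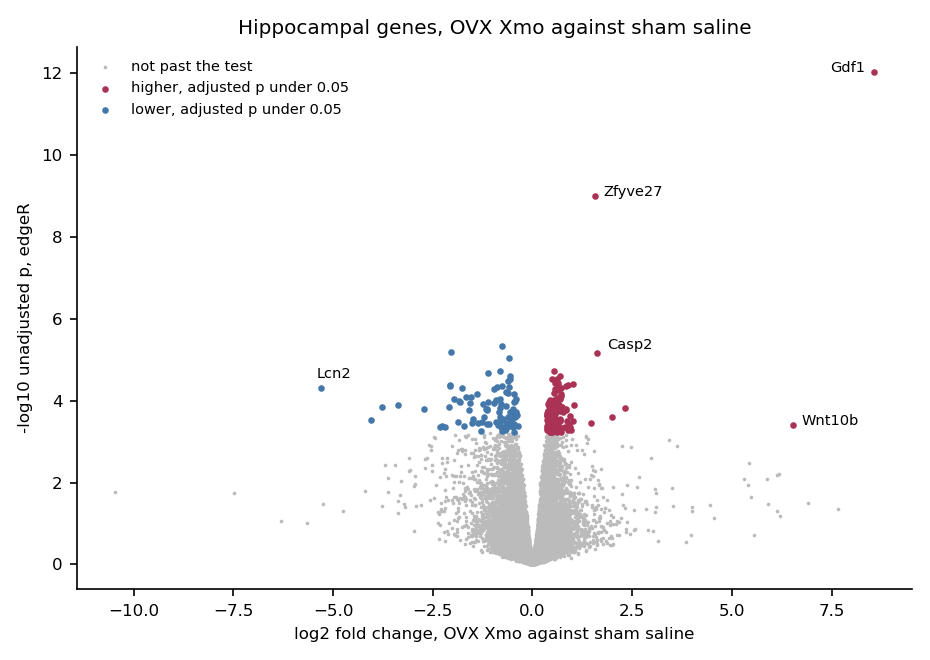
Each point is 1 of 19969 genes, placed by its log2 fold change in OVX Xmo against sham saline (x axis) and the -log10 of its unadjusted edgeR p (y axis), with the 149 genes that rose in red and the 88 that fell in blue. Gdf1 and Zfyve27 stand above all others, and the remaining called genes sit just over the threshold.

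The count rested on single libraries. Without OVX Xmo 4 it was 983 and without sham saline 1 it was 440. It was 16 without sham saline 2, 3 without sham saline 3, and 2, 2 and 3 without OVX Xmo 1, 2 and 3. Gdf1 and Zfyve27 alone passed in all 15 alternative settings run, and 191 of the 237 genes passed in at most 7 of them. DESeq2 called 1118 genes (5.6%), of which 642 were higher and 476 lower. A fit of only these 7 libraries called 4 genes, which were Casp2, Gdf1, Pafah1b1 and Zfyve27. The bar chart of calls by setting gives both directions.

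**Figure D2:**
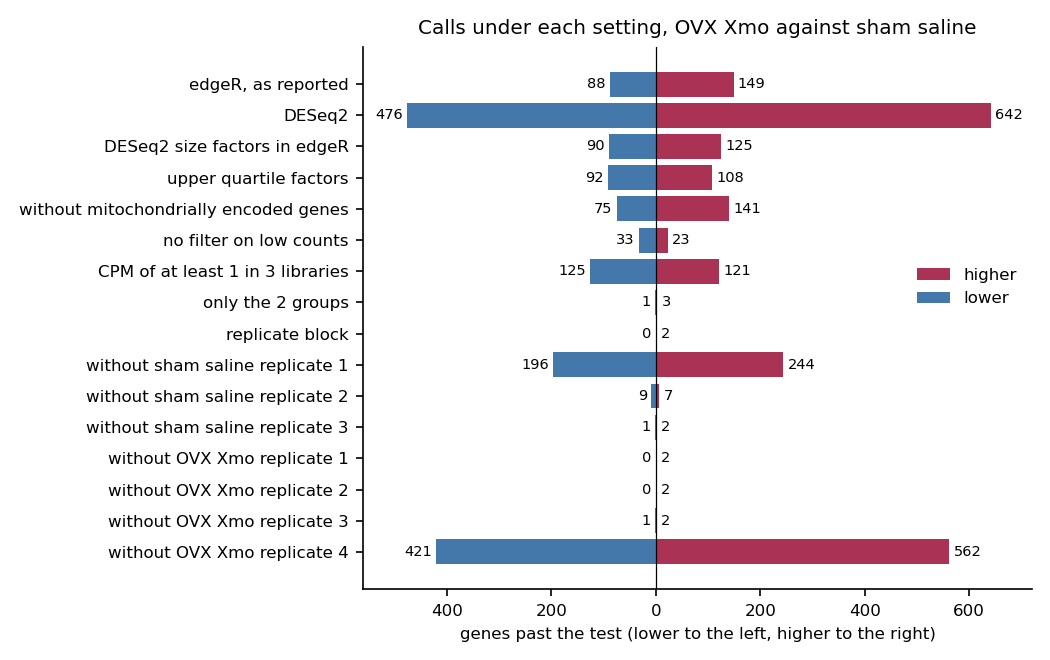
Bars give the number of genes past an adjusted p under 0.05 in OVX Xmo against sham saline under each setting, lower genes to the left in blue and higher genes to the right in red. The total runs from 2 genes, with a replicate block or without OVX Xmo 1 or 2, to 1118 in DESeq2.

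The same model gave the neighbouring comparisons, which share libraries with this one. OVX saline against sham saline, with the same 3 control libraries, had 1246 genes past the test (6.24%), and sham Xmo against sham saline had 302 (1.51%). OVX Xmo against OVX saline had 0 by edgeR (0.0%), where 834 genes reached an unadjusted p under 0.05 and the smallest edgeR adjusted p was 0.301. OVX Xmo against sham Xmo had 2 (0.01%), and 2027 genes lay at an unadjusted p under 0.05. Of these 2, AC166936.1 was among the 237. It is a predicted transcript inside the neural gene Myt1l and is therefore uncertain. Between OVX Xmo and OVX saline the 237 genes had log2 fold changes of -1.07 to 2.48, with a median size of 0.08, and the median size over all genes tested was 0.13. Whether treatment moved these genes is not answered by a missed threshold, and 9 of the 237 had an unadjusted p under 0.05 in that comparison.

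Zfyve27 and Gdf1 separated the groups most sharply. Zfyve27 encodes protrudin, an endoplasmic reticulum protein that directs endosome transport during neurite growth (ENSMUSG00000018820, chromosome 19:42163951-42194590, GRCm38.p6). It measured 22.5, 17.1 and 21.3 CPM in sham saline 1 to 3 and 65.7, 60.3, 61.5 and 54.3 CPM in OVX Xmo 1 to 4. All OVX Xmo values were well above the highest sham saline value, and the OVX Xmo range overlapped those of the sham Xmo (58.5 to 73.1 CPM) and OVX saline (59.8 to 70.5 CPM) libraries. The increase was 2.98-fold (log2 fold change of 1.57 with SE 0.12; edgeR adjusted p = 9.98e-06). The log2 fold change of OVX Xmo against OVX saline was -0.09.

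Gdf1, a ligand of the TGF-beta family (chromosome 8:70329817-70331587), had 3, 2 and 3 counts in sham saline and 50.4, 43.0, 47.7 and 29.4 CPM in OVX Xmo. The ratio of summed counts, scaled by library size, was 398 with an exact 95% interval of 202 to 922 that covers counting error only, and the fitted log2 fold change was 8.57 (SE 0.39; edgeR adjusted p = 1.82e-08). The value of Gdf1 is uncertain because the gene lies wholly within Cers1, a neuronal ceramide synthase gene with which it is known to share a transcript. Cers1 fell, from 76.9 ± 10.9 to 41.4 ± 3.73 CPM (log2 fold change of -0.89 with SE 0.16; edgeR adjusted p = 0.0316). Summed over both genes the level was 77.0 ± 10.9 CPM in sham saline, against 84.1 ± 12.8 CPM in OVX Xmo, and the ranges of 65.6 to 87.4 and 66.5 to 96.6 CPM overlapped. How reads of the shared locus were assigned in each library was not tested.

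Promoter sequence was examined for the called genes, from 250 bases before to 50 after the start of each gene in RefSeq (GRCm38.p6). Of 149 genes that rose 122 had an entry, as did 45 of 88 that fell. The windows printed here are those of Zfyve27 (chr19:42170317-42170616, plus strand), 1 of the 2 genes that passed in every setting, and the succinate dehydrogenase genes Sdhb (chr4:140961021-140961320, plus strand) and Sdhd (chr9:50603800-50604099, minus strand), complex II subunits that rose together, each 5′ to 3′ on the strand of the gene. Capitals mark the NRF1 core GCATGCGC, the estrogen receptor half-site AGGTCA and the GC box GGGCGG on either strand, so a half-site on the other strand reads TGACCT and a GC box CCGCCC.
Zfyve27: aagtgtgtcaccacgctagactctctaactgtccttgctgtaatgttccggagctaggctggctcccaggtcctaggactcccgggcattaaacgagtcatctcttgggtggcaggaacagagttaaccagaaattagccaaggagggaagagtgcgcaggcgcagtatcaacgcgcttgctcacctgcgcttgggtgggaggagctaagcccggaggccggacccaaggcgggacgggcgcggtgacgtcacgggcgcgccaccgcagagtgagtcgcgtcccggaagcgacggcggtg
Sdhb: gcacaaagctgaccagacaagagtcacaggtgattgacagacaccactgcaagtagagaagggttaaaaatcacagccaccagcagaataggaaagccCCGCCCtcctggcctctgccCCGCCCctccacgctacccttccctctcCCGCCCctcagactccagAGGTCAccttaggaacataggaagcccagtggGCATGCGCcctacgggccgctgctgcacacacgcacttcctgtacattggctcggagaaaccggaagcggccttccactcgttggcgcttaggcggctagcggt
Sdhd: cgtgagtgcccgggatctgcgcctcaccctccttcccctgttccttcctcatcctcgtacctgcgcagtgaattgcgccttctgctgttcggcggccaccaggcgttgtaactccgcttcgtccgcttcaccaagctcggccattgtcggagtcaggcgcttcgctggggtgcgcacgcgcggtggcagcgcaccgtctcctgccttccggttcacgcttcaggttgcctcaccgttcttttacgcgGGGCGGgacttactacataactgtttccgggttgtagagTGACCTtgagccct
The Sdhb window held 1 NRF1 core, 1 half-site and 3 GC boxes, the Sdhd window 1 half-site and 1 GC box, and the Zfyve27 window none of these. The start that RefSeq gives for Zfyve27 lies inside the gene's span in the deposited table, which begins further upstream, so its window is not the region before that span. Each such match is a description of letters and not a site. The NRF1 core was in 11 of 122 promoters of genes that rose (9.02%), 3 of 45 of genes that fell (6.67%) and 5.18% of 12828 promoters of tested genes. The half-site was in 16.4%, 11.1% and 15.4% of the same promoters, the E-box CACGTG in 13.9%, 11.1% and 10.8%, and the GC box in 63.1%, 66.7% and 63.8%. The antioxidant response element core TGACNNNGC was in 15.6% of promoters of genes that rose, 28.9% of those that fell and 16.6% of all.

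Casp2 and Htr7 were among the other large increases. Casp2, an initiator caspase of stress-induced cell death (chromosome 6:42264985-42282508), measured 4.12, 2.98 and 3.20 CPM in sham saline compared with 11.2, 9.74, 9.57 and 11.9 CPM in OVX Xmo. It was 3.07-fold higher without overlap (log2 fold change of 1.62 with SE 0.24; edgeR adjusted p = 0.0269) and measured 6.27 to 12.3 CPM in sham Xmo and 7.20 to 10.9 CPM in OVX saline. Of 29 apoptosis genes Casp2 was the member that rose, 0 fell and 28 did not pass, with a list median of -0.04 against 0.01 over all genes tested.

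Htr7, a serotonin receptor gene coupled to cyclic AMP (chromosome 19:35958734-36057507), was highest in OVX Xmo of all groups. It measured 2.86, 4.47 and 2.87 CPM in sham saline, against 6.69, 8.96, 7.03 and 5.0 CPM in OVX Xmo, a 2.04-fold increase (log2 fold change of 1.03 with SE 0.20; edgeR adjusted p = 0.0335). All 4 OVX Xmo values lay above the 11 others, which reached 3.38 to 3.89 CPM in sham Xmo and 3.74 to 4.48 CPM in OVX saline. The log2 fold change of OVX Xmo against OVX saline was 0.74 (SE 0.18), and it did not pass there (edgeR adjusted p = 0.998).

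Lmo1, a LIM-domain transcriptional cofactor, rose from 6.75 ± 0.766 to 13.6 ± 2.14 CPM, and Tmem160 from 6.53 ± 1.44 to 12.6 ± 2.0 CPM. Adprhl2, the hydrolase that removes ADP-ribose from serines after DNA damage, measured 8.84, 8.26 and 8.33 CPM in sham saline compared with 17.9, 17.9, 12.7 and 13.9 CPM in OVX Xmo, with log2 fold changes of 0.88 against sham saline and 0.36 against OVX saline. Zbed5 (0.85), Fcgrt, the neonatal Fc receptor (0.84), and Crlf2, a cytokine receptor chain for thymic stromal lymphopoietin (0.83), also rose. In each of these 6 genes the groups did not overlap. Zbed5, Fcgrt and Dcaf11 share 35.8%, 49.1% and 32.3% of their span with another gene and are uncertain. By smallest p, Tbcb, a tubulin folding cofactor, rose from 21.3 ± 0.892 to 30.8 ± 2.24 CPM, and Dcaf11, a substrate receptor of a cullin ubiquitin ligase, from 37.2 ± 6.27 to 60.3 ± 5.10 CPM (SD, n = 3 and n = 4).

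A pair of genes rose from almost no expression. Wnt10b, a Wnt ligand, had 0 counts in all 3 sham saline libraries and 21, 4, 12 and 8 counts in OVX Xmo. Its mean in OVX Xmo, 0.380 ± 0.216 CPM, was 3.07-fold a floor of 3 counts per library (0.124 CPM). That ratio is of the mean, to which OVX Xmo 1 gave the most counts, and is not a bound for each library. Wnt10b passed in 4 of the 15 alternative settings, not all of which gave a value for it. Nek2, a kinase of centrosome separation, measured 0.314, 0.144 and 0.164 CPM in sham saline, against 0.782, 1.15, 0.771 and 0.709 CPM in OVX Xmo (log2 fold change 1.99, SE 0.42; edgeR adjusted p = 0.0363). Wnt10b was 1 of 35 tested Wnt pathway genes that rose, with 34 not past the test, and Nek2 was 1 of 30 cell division genes, with 29 not past the test. The medians of these lists were 0.11 and 0.03.

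**Figure D3:**
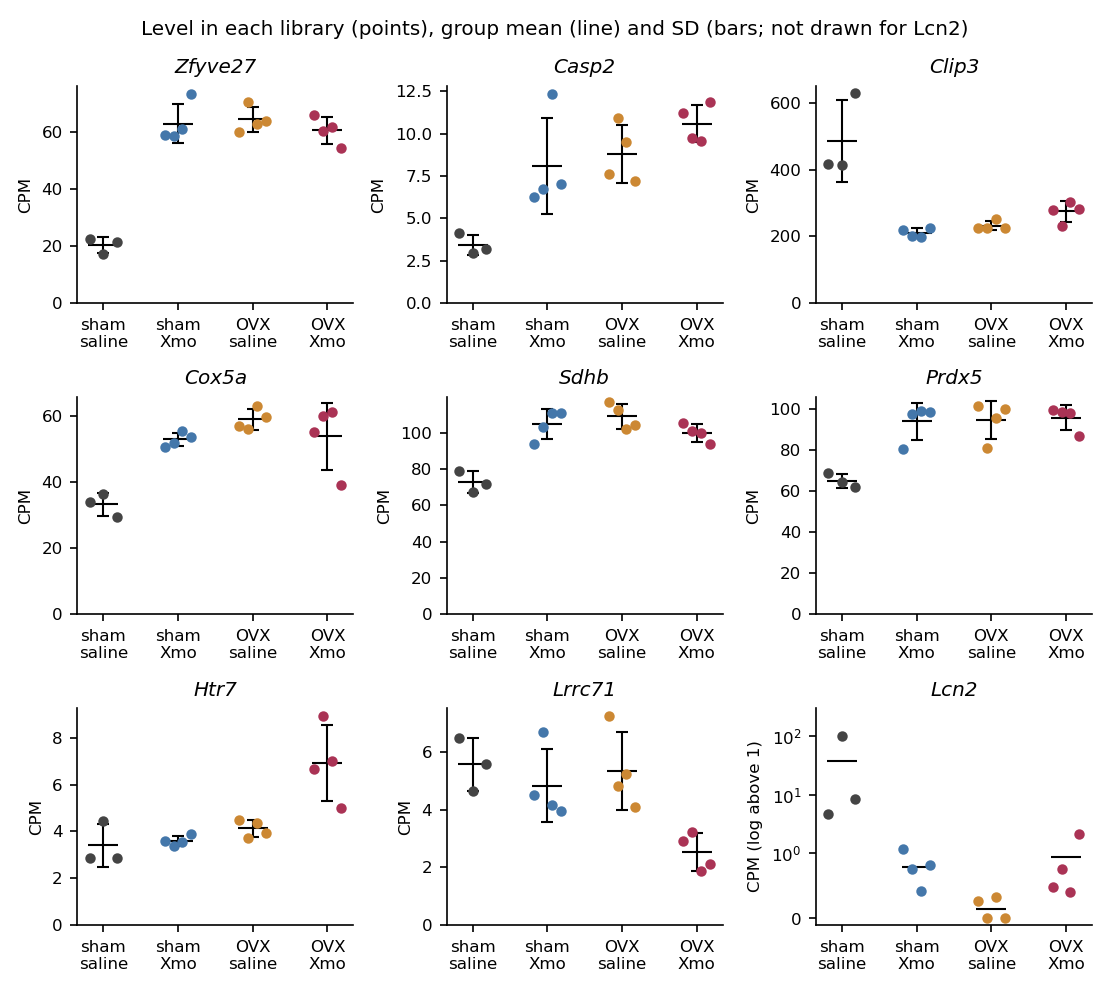
Each point is 1 library, placed by group (x axis) and CPM (y axis, logarithmic above 1 for Lcn2), with a line for the group mean and bars for the SD except in Lcn2, where none is drawn. Zfyve27, Casp2, Cox5a, Sdhb and Prdx5 are low in all 3 sham saline libraries against the 12 others, Clip3 and Lcn2 are high there, and Htr7 and Lrrc71 set OVX Xmo apart.

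Of 13 protein genes of the mitochondrial genome, 9 fell (69.2%, against 0.441% of all genes tested), 0 rose and 4 did not pass. All 13 lay lower with no overlap, which in either direction held for 14.9% of all genes. The median log2 fold change of the 13 was -1.43, against 0.01 over all genes tested. mt-Nd6, a complex I subunit read from the light strand, measured 5549.6, 16581 and 9458 CPM in sham saline compared with 1731, 1763, 2092 and 4324 CPM in OVX Xmo (log2 fold change of -2.09 with SE 0.41; edgeR adjusted p = 0.0335). Sham saline 2 was highest and OVX Xmo 4 was the closest to sham saline. The complex I genes mt-Nd4l (-1.85), mt-Nd1 (-1.66), mt-Nd4 (-1.56), mt-Nd2 (-1.53) and mt-Nd5 (-1.39) fell, as did the ATP synthase gene mt-Atp8 (-1.77), the cytochrome b gene mt-Cytb (-1.12) and the complex IV gene mt-Co2 (-1.14).

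The 4 that missed the test were mt-Co1 (-0.73; edgeR adjusted p = 0.0518), mt-Co3 (-0.58; 0.0829), mt-Nd3 (-0.99; 0.131) and mt-Atp6 (-1.43; 0.159). mt-Atp6 measured 2088, 8602, 8752 and 11795 CPM in OVX Xmo, where library 1 was far under the others. The transfer RNA genes mt-Tm, for methionine, and mt-Tk, for lysine, fell by 2.05 and 1.73, and 11 of 36 tested features of the mitochondrial chromosome fell in all. Nuclear copies of mitochondrial sequence were also lower, and because reads cannot be told apart between near-identical copies both are uncertain. The log2 fold change of Gm28439 was -1.97, Gm10222 -1.81, Gm10925 -1.25 and Gm28661 -1.15.

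As a share of all counts these 13 genes took 19.0%, 34.1% and 24.2% in sham saline and 12.4%, 13.4%, 13.8% and 16.5% in OVX Xmo. The groups did not overlap, and the mean was lower: the difference was -11.7 percentage points. The exact two-sided permutation test gave p = 0.0571, the smallest that 4 against 3 libraries allow. The share was 14.2% ± 1.94 in OVX saline and 16.2% ± 2.08 in sham Xmo (SD, n = 4 each). Without sham saline 2, 0 of the 13 genes passed and the median was -1.04, and 0 passed without sham saline 3 or without OVX Xmo 1, 2 or 3. In the plot of mitochondrial transcripts every gene has its sham saline points above its OVX Xmo points.

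**Figure D4:**
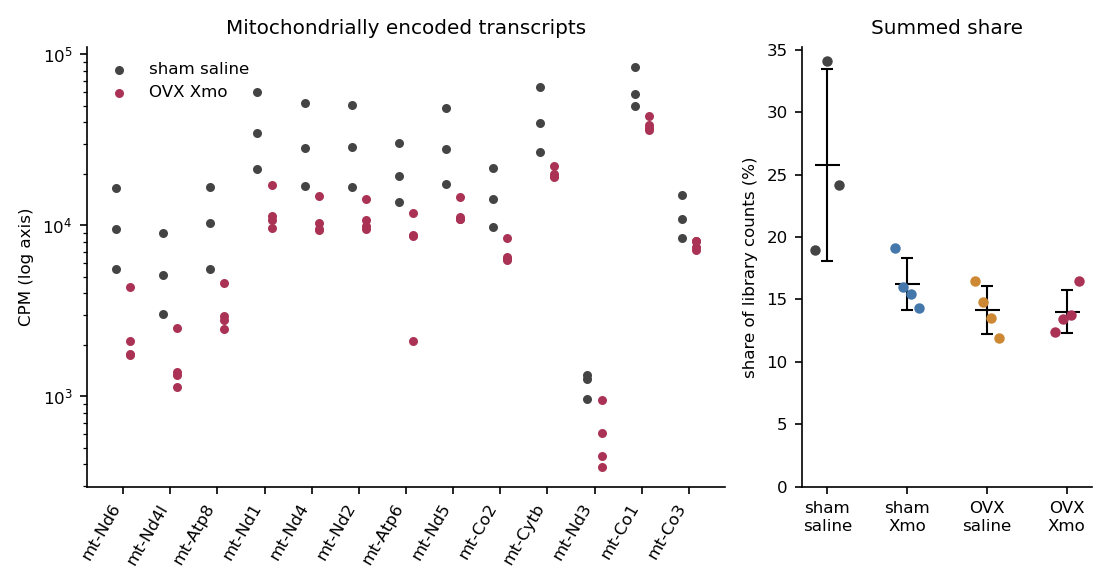
Left, CPM of each of the 13 mitochondrially encoded genes in 3 sham saline (grey) and 4 OVX Xmo (red) libraries on a log axis, ordered by fold change. Right, their summed share of library counts in all 4 groups with mean and SD, where sham saline runs from 19.0% to 34.1% and OVX Xmo from 12.4% to 16.5%.

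Nuclear genes of the same machinery lay on the other side. Of 77 nuclear subunit genes of oxidative phosphorylation, 10 rose, 0 fell and 67 did not pass, and 63 lay higher. Their median was 0.23 against 0.01 over all genes. All 4 genes of complex II, succinate dehydrogenase, lay higher without overlap, which in either direction held for 14.9% of all genes tested. Of these 4 genes Sdhb and Sdhd rose, where 0.746% of all genes tested did. Sdhb, the iron-sulfur subunit (chromosome 4:140961203-140979193), measured 79.1, 67.1 and 71.8 CPM in sham saline, against 105, 101, 99.8 and 93.6 CPM in OVX Xmo (log2 fold change of 0.46 with SE 0.09; edgeR adjusted p = 0.0335). Sdhd, a membrane anchor (chromosome 9:50596357-50603812), measured 40.8, 37.6 and 38.5 and 54.4, 54.4, 57.1 and 48.4 CPM (log2 fold change of 0.46 with SE 0.10; edgeR adjusted p = 0.0363). In both genes every OVX Xmo value was above every sham saline value. Sdha (0.32; edgeR adjusted p = 0.0866) and Sdhc (0.29; 0.111) did not pass.

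In complex IV, Cox5a measured 33.8, 36.3 and 29.6 CPM in sham saline compared with 55.3, 59.9, 61.3 and 39.2 CPM in OVX Xmo, where library 4 was closest to sham saline (log2 fold change of 0.70 with SE 0.13; edgeR adjusted p = 0.0335), and Cox8a rose by 0.63. Complex III contributed the Rieske iron-sulfur gene Uqcrfs1 (0.55) and the cytochrome c1 gene Cyc1 (0.49). Uqcrb of the same complex went the other way, lower without overlap but not past the test (-0.58; edgeR adjusted p = 0.0669). In complex I, 3 of 37 genes rose (8.11%, against 0.746% of all genes tested), Ndufb6 (0.53), Ndufs3 (0.43) and Ndufa9 (0.41). In ATP synthase 1 of 15 rose (6.67%), the epsilon subunit gene Atp5e (0.69). The complex medians were 0.17 for I, 0.39 for II, 0.23 for III, 0.28 for IV and 0.27 for ATP synthase. The log2 fold changes of the 10 genes against OVX saline ran from -0.16 to 0.12. Summed, the 77 genes took 0.564% ± 0.0951 of counts in sham saline and 0.808% ± 0.0740 in OVX Xmo (exact permutation p = 0.0571, the smallest possible). With mitochondrial genes left out of library sizes and tests, the same count of 10 rose. Without sham saline 2 or 3, or OVX Xmo 1, 2 or 3, the count was 0.

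**Figure D5:**
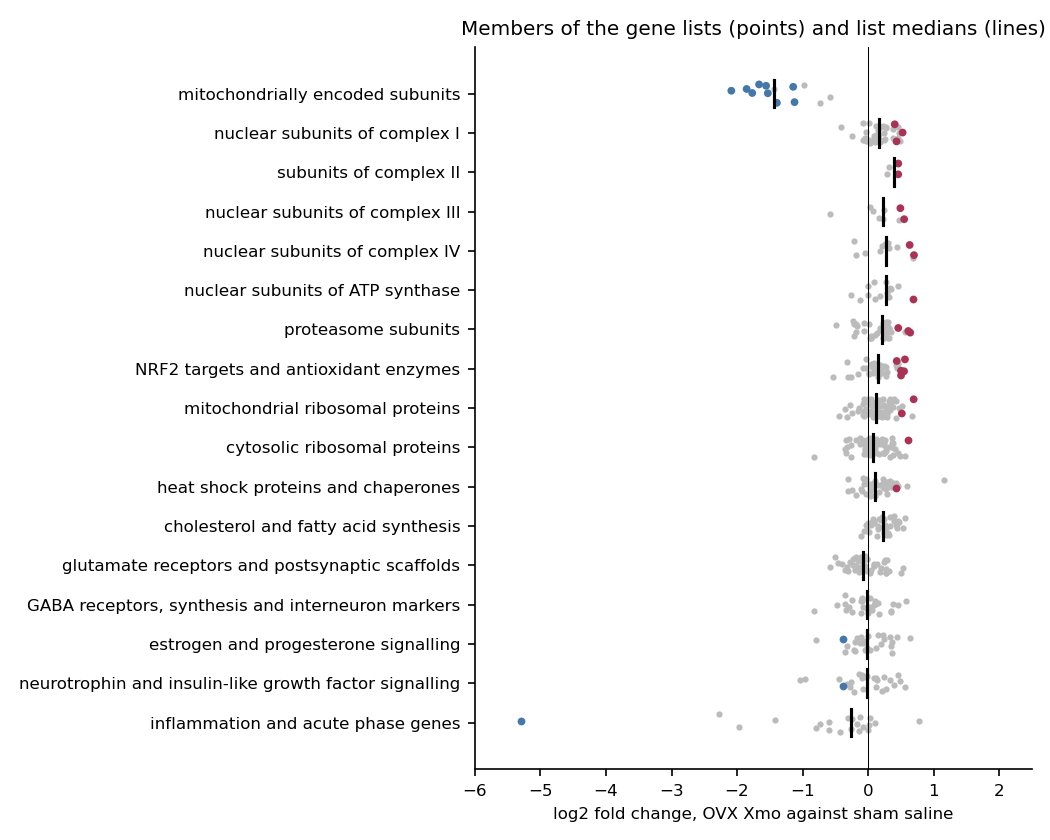
Points are the tested members of 17 gene lists, placed by log2 fold change in OVX Xmo against sham saline (x axis), in red or blue where they rose or fell and in grey where they did not pass, with a black line at each list median. Mitochondrially encoded genes lie to the left with a median of -1.43, nuclear subunits to the right with medians of 0.17 to 0.39.

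Antioxidant enzymes, listed because xanthohumol can react with KEAP1, were partly higher, and the values below do not separate treatment from surgery. Of 35 NRF2 targets and antioxidant enzymes, 5 rose (14.3%, against 0.746% of all genes tested), 0 fell and 30 did not pass. The list median was 0.15, against 0.01 over all genes. Prdx5, a peroxiredoxin of mitochondria and peroxisomes (chromosome 19:6906697-6910106), measured 68.7, 64.3 and 61.9 CPM in sham saline, against 99.5, 98.6, 98.3 and 87.1 CPM in OVX Xmo (log2 fold change of 0.56 with SE 0.10; edgeR adjusted p = 0.0316). The groups did not overlap, and sham Xmo (80.7 to 99.1 CPM) and OVX saline (81.0 to 101 CPM) were at the OVX Xmo level. The peroxiredoxin genes Prdx2 (0.50) and Prdx6 (0.44), Gpx4, which reduces lipid peroxides (0.50), and Taldo1, transaldolase of the pentose phosphate pathway (0.55), also rose. The pathway's own regulators did not pass: Nfe2l2, which encodes NRF2, measured 19.5 ± 2.09 and 18.3 ± 1.75 CPM (-0.09; edgeR adjusted p = 0.708) and Keap1 29.1 ± 2.02 and 39.4 ± 2.35 CPM (0.43; 0.0807). Against OVX saline the 5 genes that rose measured -0.11 to 0.05.

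Genes of protein turnover and synthesis were read against the 0.746% of all genes that rose. Of 39 proteasome genes 3 rose, 0 fell and 36 did not pass (7.69% higher, median 0.21). These were the core particle genes Psmb5, the chymotrypsin-like subunit (35.9 ± 1.84 to 54.9 ± 4.45 CPM, 0.61), and Psmb4 (0.64), and the ATPase gene Psmc2 (0.46). Of 78 mitochondrial ribosomal protein genes 2 rose (2.56%), Mrps28 (0.69) and Mrpl28 (0.51), and of 77 cytosolic ones 1 (1.3%), Rpl8 of the large subunit (0.61). The medians of these lists were 0.12 and 0.08. The cytosolic ribosomal share was 0.885% of counts in sham saline and 1.15% in OVX Xmo, and the groups overlapped (exact permutation p = 0.114). Of 41 chaperone genes 1 rose (2.44%), Cct7 of the cytosolic chaperonin (0.43). None of 37 cholesterol and fatty acid synthesis genes passed in edgeR, although 31 lay higher (median 0.23), 13 had an unadjusted p under 0.05 and DESeq2 called 5. For all 19969 genes tested the last 2 counts were 3780 and 1118 (5.6%).

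By log2 fold change the largest decrease among the 237 genes was in Lcn2, an iron-binding protein of the acute phase response that neutrophils and reactive astrocytes make (chromosome 2:32384633-32388252). It measured 4.65, 98.6 and 8.42 CPM in sham saline compared with 0.486, 0.758, 0.408 and 2.13 CPM in OVX Xmo (log2 fold change of -5.30 with SE 0.95; edgeR adjusted p = 0.0316). The groups did not overlap, but sham saline 2 alone set the mean of 37.2 CPM. Other neutrophil genes were high in the same library: S100a9 measured 2.06, 12.1 and 2.75 CPM in sham saline, against 0.702 to 1.04 CPM in OVX Xmo, and Ngp 0.454, 13.2 and 2.59 and 0.421 to 0.863 CPM. Of 12 neutrophil markers tested, of 18 listed, Lcn2 was the 1 that fell, 11 did not pass and 11 lay lower, and the unscaled sum over the list was 23.9, 127 and 26.5 CPM in sham saline 1 to 3 and 15.8 to 19.9 CPM in OVX Xmo. Without sham saline 2 none of them passed in edgeR. The part of blood cells in the Lcn2 value was not tested. Of 21 tested inflammation genes, of 26 listed, Lcn2 was also the single one that fell, with a median of -0.26, and Icam1, an adhesion molecule, measured 2.90 ± 0.759 and 1.09 ± 0.392 CPM without passing (edgeR adjusted p = 0.0586).

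Among genes of the synapse, 2 of vesicle release lay lower without passing. Vamp2, the vesicle SNARE, measured 971 ± 230.4 CPM in sham saline compared with 695 ± 71.5 CPM in OVX Xmo (-0.48; edgeR adjusted p = 0.0729), and Syn1, synapsin, 601 ± 188 and 402 ± 59.6 CPM (-0.58; 0.0935). Sham saline 3 was the highest library of these groups in both genes. In edgeR, none of 51 glutamate receptor and postsynaptic genes (median -0.08), 30 GABA genes (-0.01), 43 potassium channel genes (-0.01), 23 sodium and calcium channel genes (0.00) or 26 immediate early genes (-0.09) passed. In the same order, 11, 5, 9, 4 and 2 of them had an unadjusted p under 0.05, and DESeq2 called 2, 1, 3, 2 and 1. Among all 19969 genes tested these counts were 3780 and 1118 (5.6%).

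Clip3, Ube2d1, Ubap2l and Clec14a were further genes that fell. Clip3, a CAP-Gly protein of the trans-Golgi and recycling endosomes, measured 418, 414 and 630.2 CPM in sham saline, against 280.5, 232, 304 and 283 CPM in OVX Xmo (log2 fold change of -0.83 with SE 0.13; edgeR adjusted p = 0.0316). Ube2d1, a ubiquitin-conjugating enzyme, fell from 78.1 ± 9.11 to 45.6 ± 3.99 CPM (-0.77), and Ubap2l, an RNA-binding protein of stress granules that shares 42.5% of its span with a predicted gene, from 169 ± 21.8 to 112 ± 5.20 CPM (-0.60). Clec14a, a lectin-like protein of endothelium, fell from 9.0 ± 2.03 to 4.14 ± 0.721 CPM (-1.12; SD, n = 3 and n = 4). None of these overlapped between the groups. In edgeR none of 22 endothelial markers passed, with a median of -0.14, 7 at an unadjusted p under 0.05 and 3 called by DESeq2. Of all 19969 genes tested, 3780 lay at an unadjusted p under 0.05 and DESeq2 called 1118 (5.6%).

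Rn7s1, Rn7s2 and Rn7sk fell. Rn7s1 and Rn7s2, near-identical genes of the RNA in the signal recognition particle, cannot be told apart by reads, and their sum was 23.1, 19.0 and 52.3 CPM in sham saline compared with 7.66, 6.88, 8.48 and 7.09 CPM in OVX Xmo, with fitted log2 fold changes of -2.06 and -2.07. Rn7sk, the RNA that restrains transcription elongation, measured 2.51, 3.27 and 4.35 and 1.19, 1.40, 1.54 and 1.12 CPM (log2 fold change of -1.36 with SE 0.30; edgeR adjusted p = 0.0418). A list of 20 RNAs without a poly(A) tail, which does not hold Rn7s1 and Rn7s2, had 10 tested members, 6 of them histone genes. Rn7sk was the 1 that fell, 0 rose and 9 did not pass, with a median of -0.12. Pcdhga2 of the gamma-protocadherin cluster, cell adhesion genes with shared 3′ exons, measured 175, 20.6 and 9.24 CPM in sham saline, against 6.26 to 6.91 CPM in OVX Xmo. Its span lies wholly within another cluster gene and sham saline 1 carried most of its level, so its log2 fold change of -3.38 is uncertain.

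Genes of hormone and growth factor signalling mostly did not pass. Of 28 tested genes, of 31 listed, of estrogen and progesterone signalling, 1 fell, 0 rose and 27 did not pass (median -0.02), and of 26 neurotrophin and insulin-like growth factor genes 1 fell, 0 rose and 25 did not (median -0.02). In both lists the gene was Igf1r, the receptor of insulin-like growth factors (chromosome 7:67952827-68233668). It measured 79.9, 82.9 and 82.8 CPM in sham saline compared with 58.0, 64.2, 59.9 and 67.9 CPM in OVX Xmo (log2 fold change of -0.39 with SE 0.08; edgeR adjusted p = 0.0363), with all sham saline values above all OVX Xmo values. Igf1r did not pass without sham saline 2 or 3 or without OVX Xmo 1, 2 or 3. The progesterone receptor gene Pgr, an estrogen-induced gene, measured 22.7, 21.2 and 24.4 CPM in sham saline, against 18.8, 16.3, 17.1 and 21.0 CPM in OVX Xmo. Its groups did not overlap and it did not pass (-0.32; edgeR adjusted p = 0.266). In OVX saline Pgr measured 12.7 to 15.2 CPM, with log2 fold changes of -0.70 against sham saline and 0.39 for OVX Xmo against OVX saline. Esr1, the alpha estrogen receptor, was at 1.64 ± 0.322 and 1.29 ± 0.400 CPM (-0.35; 0.614). Bdnf, the neurotrophin, was at 44.0 ± 4.56 and 39.7 ± 4.85 CPM (-0.15; 0.608), and the ranges of both Esr1 and Bdnf overlapped.

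Of 30 genes of amyloid and tau biology 1 rose, the tau kinase gene Cdk5, from 65.8 ± 1.91 to 85.4 ± 5.95 CPM (log2 fold change of 0.38 with SE 0.08; edgeR adjusted p = 0.0337), and 29 did not pass (median -0.06). No member passed in edgeR among 20 glucocorticoid-regulated genes (median -0.19), 20 clock genes (-0.13), 36 autophagy genes (0.09), 30 interferon-response genes (-0.10) or 18 nuclear-retained RNAs (-0.11). In the same order, 3, 3, 9, 3 and 4 of them had an unadjusted p under 0.05, and DESeq2 called 1, 2, 4, 1 and 3. Among all 19969 genes tested these counts were 3780 and 1118 (5.6%). The nuclear-retained list holds Xist, at -0.91 (edgeR adjusted p = 0.664) with the library labelled OVX Xmo 2 at 0.365 CPM. The absence of a call at this sample size does not show that these genes were alike in both groups.

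Some called genes were named for the size of their difference between OVX Xmo and OVX saline, and that difference is therefore a description. Besides Htr7, 3 called genes had all 4 OVX Xmo libraries outside the range of the 11 others, which held for 0.165% of all genes tested. These called genes were Lrrc71 and the predicted transcripts Gm44597 and AC166936.1. Both transcripts lie within another gene and are uncertain. Lrrc71, a leucine-rich repeat gene, measured 6.50, 4.66 and 5.58 CPM in sham saline, 4.50, 6.70, 4.16 and 3.96 in sham Xmo, 7.26, 4.82, 5.24 and 4.11 in OVX saline but 2.91, 3.23, 1.86 and 2.13 in OVX Xmo. Its log2 fold changes were -1.13 against sham saline (edgeR adjusted p = 0.0418) and -1.07 against OVX saline. OVX Xmo was lowest, and the other 3 groups overlapped.

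Akap7, an anchoring protein of protein kinase A, fell from 38.3 ± 6.97 to 23.9 ± 5.65 CPM (-0.68), with 29.5 to 31.9 CPM in OVX saline. Creb5, a bZIP transcription factor, fell from 10.4 ± 1.47 to 5.89 ± 0.943 CPM (-0.81), and Fam229b from 10.1 ± 1.54 to 5.56 ± 0.850 CPM (-0.86). Against OVX saline the log2 fold changes of these 3 genes were -0.36, -0.32 and -0.40, and their OVX saline values against sham saline were -0.32, -0.49 and -0.46. At the other end stood mt-Nd6, at -2.09 in OVX Xmo and -2.42 in OVX saline against the same sham saline libraries, and Lcn2, which measured 0.276, 0, 0.325 and 0 CPM in OVX saline. OVX Xmo and OVX saline differed in none of these 6 genes at an adjusted p under 0.05 in edgeR, and the smallest unadjusted p among them was 0.000331 for Lrrc71.

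Markers of cell types that a dissected hippocampus can hold were compared as summed unscaled levels. Apart from Lcn2 none of the members of 16 marker lists passed in edgeR. At an unadjusted p under 0.05 lay 4 of 21 microglial, 9 of 20 astrocyte and 1 of 20 oligodendrocyte markers, and DESeq2 called 1, 3 and 0. Over all 19969 genes tested, 3780 had an unadjusted p under 0.05 and DESeq2 called 1118 (5.6%). Microglial markers summed to 426 to 529.7 CPM in sham saline compared with 545 to 720.4 CPM in OVX Xmo (median log2 fold change 0.14), astrocyte markers to 6524 to 8531 and 8899 to 9804 CPM (0.05), and oligodendrocyte markers to 3512 to 5226 and 4175 to 6167 CPM (-0.03). Choroid plexus markers summed to 332 to 1842 CPM in sham saline, against 253 to 2652 CPM in OVX Xmo, with a median of -0.47, and thalamic markers summed to 293 to 777 and 303 to 1441 CPM. The median log2 fold changes of the remaining lists were 0.18 for oligodendrocyte precursors, 0.01 for mural cells, -0.35 for ependyma, 0.22 for meninges, -0.04 for red blood cells, -0.08 for dentate granule cells, 0.10 for CA1, -0.01 for CA2 and CA3, -0.16 for thalamus and -0.15 for neocortex. Since unscaled levels fall where mitochondrial counts rise, these ranges carry the difference in mitochondrial share too.

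Fold changes varied with transcript length. Among nuclear genes ordered into 5 equal bins by length, taken from the ratio of counts to the authors' FPKM, the median log2 fold change was 0.11, 0.07, 0.01, -0.01 and -0.07 from the shortest to the longest. Genes that rose numbered 49, 41, 35, 19 and 5 in these bins and genes that fell 12, 14, 11, 18 and 22. By mean level the bins from lowest to highest held 4, 6, 27, 46 and 66 genes that rose and 7, 8, 19, 15 and 28 that fell, and their medians ran from -0.05 to 0.05. The cause of this relation to length was not tested. Gene lists were set beside all genes tested and not beside genes of similar length.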

How the data were processed

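Hippocampal mRNA was measured by sequencing in 15 libraries of 4 groups taken from the labels. The deposited table gives read counts, FPKM and TPM for 51826 features. FPKM and TPM are the authors' length-scaled values per the file headers; FPKM served only for gene length, and TPM was not used for results. FastQC 0.11.2, Trimmomatic 0.36, Bowtie2 2.3.2, StringTie 1.3.3b and the build GRCm38.p6 are named in the submitters' processing notes. The program behind the deposited counts and its use of strand are not stated by the labels. A further 12 per-sample columns, of 4 libraries, matched no sample and were not used.

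Counts were tested in R 4.3.3 with edgeR 4.0.16 (limma 3.58.1) by its quasi-likelihood test over all 15 libraries, with TMM factors, filterByExpr by group, 19969 genes and Benjamini-Hochberg adjusted p under 0.05. Libraries held 20848661 to 39140593 counts. DESeq2 1.42.0 and 14 further settings were alternatives. Summed shares were compared by exact two-sided permutation tests.

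Members and gene lists were chosen with earlier results of these data known. Where the groups did not overlap, the genes named were the 10 higher and 10 lower with the largest fold change and at least 5 CPM, the 5 of each with the smallest p, up to 4 per list by p, and the 5 with the largest and the 5 with the smallest difference between OVX Xmo and OVX saline. Other genes named, such as list members that did not pass, were chosen for their role. Chromosome positions follow the deposited table, and promoters are from RefSeq. Some items are not reported here.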

Additional observations from a re-analysis of the deposited data

Results flagged for a closer look

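In groups of 4, single libraries stood far from the other 3 in 16 of 186 groups of values examined (8.60%), and chance gives about 1 in 20 for independent groups. In OVX Xmo these were library 4 for mt-Nd5 (14613 CPM, next 11174), mt-Nd6 (4324 CPM, next 2092), Prdx5 (87.1 CPM, next 98.3) and Fam229b (4.29 CPM, next 5.87), the library labelled OVX Xmo 2 for Nek2 (1.15 CPM) and library 1 for Fcgrt (14.9 CPM). For mt-Nd5, mt-Nd6 and Prdx5, OVX Xmo 4 was the library of its group nearest to sham saline. The groups of values share libraries, and some genes share reads, as Rn7s1 and Rn7s2 do. The 8.60% therefore does not measure an excess over chance.

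In the other groups the values were Casp2 at 12.3 CPM and Adprhl2 at 16.7 CPM in sham Xmo 3, Prdx5 at 80.7 CPM and Pcdhga2 at 3.96 CPM in sham Xmo 1, and Tbcb at 29.9 CPM, Rn7s1 at 7.79 CPM and Rn7s2 at 7.81 CPM in OVX saline 1. Ndufs3 was at 50.7 CPM in OVX saline 2 and Clip3 at 254 CPM in OVX saline 3. The share of counts from nuclear subunits of oxidative phosphorylation was 0.674% in 1 sham Xmo library, under the 0.828% of the next.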

How the results depend on the processing

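The count of genes past the test, 237 with 149 higher and 88 lower, changed by over 1.5 times in 4 settings that kept all 7 libraries of both groups. DESeq2 gave 1118 (642 higher, 476 lower), no filter on low counts 56 (23 and 33), a fit of only these groups 4 (3 and 1), and a replicate block 2 (2 and 0). Without each library in turn the total ran from 2 to 983, the higher genes from 2 to 562 and the lower from 0 to 421. DESeq2 size factors in edgeR gave 215, upper quartile factors 200, leaving out mitochondrially encoded genes 216 and a filter at 1 CPM 246. Of the 237, 224 were also called by DESeq2 and 205 with the 1 CPM filter. The 59 named genes had 873 values under alternatives, of which 447 stayed past the threshold, 426 did not and 0 changed direction. Same-numbered libraries of both groups had correlations of -0.04, 0.17 and -0.01 in their deviations, and pairs of unlike number -0.19 to 0.19. So few values cannot decide whether same-numbered libraries belong together. Without each library the mitochondrial share differed by -15.1 to -7.56 percentage points, the ribosomal by 0.223 to 0.326 and the nuclear oxidative phosphorylation share by 0.200 to 0.294. The causes were not tested. Genes with few counts have wide counting error.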

Other observations

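Genes past the test outside the lists were read through after their values were seen, so the groups named here were chosen from the data and carry no test. Several encode mitochondrial proteins other than respiratory subunits and rose: Slc25a5, an ADP/ATP carrier, from 126 ± 7.99 to 166 ± 14.4 CPM (log2 fold change 0.40), Sirt3, the mitochondrial deacetylase (0.48), Trap1, a mitochondrial chaperone (0.41), Coq2 of coenzyme Q synthesis (0.47), and the assembly factors Coa3 (0.52), Cox14 (0.60) and Ndufaf7 (0.37). The metabolic enzymes Mdh1, malate dehydrogenase of the cytosol, and Pgk1 of glycolysis rose by 0.40 and 0.44 on the log2 scale. Cst3, the protease inhibitor cystatin C, rose from 583 ± 47.8 to 879 ± 114 CPM (0.59).

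Several genes of nuclear RNA processing fell. Prpf38b of the spliceosome measured 84.9, 143 and 90.1 CPM in sham saline and 30.4 to 61.6 CPM in OVX Xmo (-1.15), Pnn -0.62, Srrm1 -0.50, and Polr2a, the large subunit of RNA polymerase II, -0.67. The values are log2 fold changes, each past the edgeR threshold. Osmr, the oncostatin M receptor, measured 10.7, 34.1 and 10.5 CPM in sham saline and 4.56 to 6.89 CPM in OVX Xmo (-1.60), and Ch25h, a cholesterol hydroxylase, 0.629, 6.77 and 0.985 and 0.108 to 0.408 CPM (-3.76). Sham saline 2 was the highest library in Prpf38b, Osmr and Ch25h.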
